A study of Mus musculus with 16 samples.

Results

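The Fgf ligand genes Fgf3, Fgf4, Fgf8, Fgf9, Fgf10, Fgf15, Fgf17, Fgf18 and Fgf20 were chosen by name, with earlier results of these data known. They make up 9 of the 26180 gene symbols that have a curated RefSeq transcript on GRCm38. Their chromatin was read from 6 peak lists, which hold the regions that the authors called as enriched for H3K4me3, H3K27me3 or Suz12 in each of 2 cultures of mouse embryonic stem cells. A gene was counted as marked at its start when a peak overlapped the window from 2500 bp before to 2500 bp after any of its start sites, and as marked over its body when a peak overlapped the gene record.

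Fgf ligands are secreted signalling proteins that bind receptor tyrosine kinases at the cell surface and act mainly through the Ras and Erk kinases. Embryonic stem cells make Fgf4, which primes them to leave the pluripotent state, whereas the other ligands described here are best known from the later embryo, in limb, lung, brain, inner ear and gut. H3K4me3 marks the start sites of active and poised genes, Suz12 is a core subunit of Polycomb repressive complex 2 (PRC2), and H3K27me3 is the histone modification that PRC2 deposits. Start sites of developmental genes in stem cells often carry H3K4me3 and H3K27me3 together and are then called bivalent.

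The cells were the R1 line of mouse embryonic stem cells, without feeders, in serum medium to which vitamin C was added in both cultures. LIF-ESCs received 100 units/ml of leukaemia inhibitory factor (LIF) and no 4-hydroxytamoxifen (OHT), and Myc-ESCs received 50 nM OHT and no LIF. In the study's system a Myc protein joined to the hormone-binding part of the oestrogen receptor is switched on by OHT, and the fusion was present in the controls too. Removal of LIF and activation of Myc therefore cannot be told apart in this pair of cultures. The study drew on single clones of the fusion line, and which clone gave these libraries is not given in the sources used here.

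The 16 libraries comprised 2 for each culture and antibody and 4 inputs, but there was 1 peak list per culture and antibody, with no list for a single library. No difference below could therefore be set against replicate error, the read depth was unknown, and every comparison is a description of 2 lists. The lists held between 3120 peaks (LIF-ESC H3K27me3) and 32469 peaks (LIF-ESC H3K4me3), and the Myc-ESC H3K27me3 list held 16717. Peak scores rise as the caller's p-value falls, on a log10 scale, and start near 50 in every list. All 8 markers of pluripotent cells that were examined, Pou5f1, Sox2, Nanog, Zfp42, Esrrb, Klf4, Tfcp2l1 and Dppa3, had an H3K4me3 peak at the start in both cultures. Among them H3K27me3 was listed in Myc-ESCs only at Esrrb and Tfcp2l1, and Suz12 in Myc-ESCs only at Klf4.

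Every one of the 9 Fgf ligand genes had an H3K4me3 peak over its start site in both cultures, and the cultures differed in the Polycomb marks. H3K4me3 lay at the start of 9 members in LIF-ESCs, where 62.2% of all genes had it, and of 9 in Myc-ESCs, where 63.3% had it. H3K27me3 lay at 2 members in LIF-ESCs (Fgf8 and Fgf20), against 3.82% of all genes, and at 5 in Myc-ESCs (Fgf3, Fgf8, Fgf9, Fgf10 and Fgf20), against 10.7% of all genes. Suz12 lay at 5 members in LIF-ESCs (Fgf3, Fgf8, Fgf9, Fgf15 and Fgf20), against 12.1% of all genes, and at 7 in Myc-ESCs (Fgf3, Fgf8, Fgf9, Fgf10, Fgf17, Fgf18 and Fgf20), against 14.6% of all genes. Fgf4 was the member with neither Polycomb mark in either culture.

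The differences between the lists ran in both directions. H3K27me3 was listed in Myc-ESCs only at Fgf3, Fgf9 and Fgf10, a state held by 7.65% of all genes, and at no member in LIF-ESCs only, against 0.733% of all genes. Suz12 was listed in Myc-ESCs only at Fgf10, Fgf17 and Fgf18, against 3.82% of all genes, and in LIF-ESCs only at Fgf15, against 1.28%. No member had H3K4me3 in a single culture only, a state of 2.35% of all genes for Myc-ESCs and 1.21% for LIF-ESCs. Because the H3K27me3 lists differ in length, the members were counted again on shorter ones. When peaks scoring under 100 were left out, H3K27me3 lay at 0 members in LIF-ESCs, against 0.458% of all genes, and at 2 in Myc-ESCs (Fgf8 and Fgf9), against 3.73%. With both lists held to the same number of highest-scoring peaks it lay at 2 members in LIF-ESCs (Fgf8 and Fgf20), against 3.82% of all genes, and at 2 in Myc-ESCs (Fgf8 and Fgf9), against 3.53%. Fgf9 was then listed in Myc-ESCs only, against 1.75% of all genes, and Fgf20 in LIF-ESCs only, against 2.04%. In windows of 1000 bp on each side it lay at 0 members in LIF-ESCs, against 1.74% of all genes, and at 2 in Myc-ESCs (Fgf8 and Fgf9), against 6.2%.

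The gene bodies gave similar counts. H3K4me3 peaks overlapped the bodies of 9 members in each culture, against 64.8% (LIF-ESCs) and 65.8% (Myc-ESCs) of all genes. H3K27me3 peaks overlapped the bodies of 3 members in LIF-ESCs, against 4.04% of all genes, and of 4 in Myc-ESCs, against 11.1%. Suz12 peaks overlapped the bodies of 6 members in LIF-ESCs, against 12.4% of all genes, and of 7 in Myc-ESCs, against 15.2%. Bodies and windows overlap for these mostly short genes, so the counts are not independent.

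**Figure D1:**
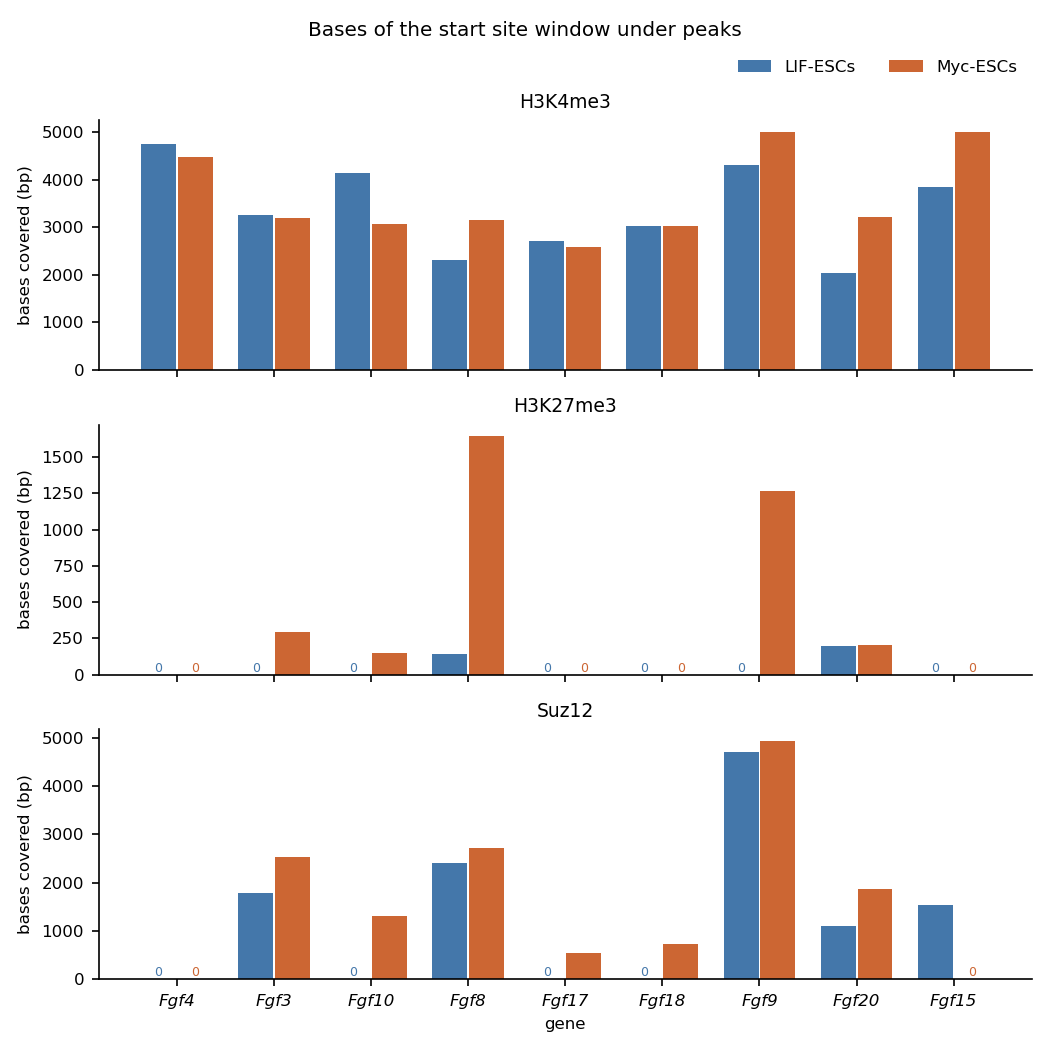
Bases of the start site window of each Fgf ligand gene that lay under peaks, in bp, for H3K4me3, H3K27me3 and Suz12, with LIF-ESCs in blue and Myc-ESCs in orange and 1 list per bar (no replicates, so no error bars). H3K4me3 covered at least 2034 bp at every gene, while H3K27me3 exceeded 1000 bp only at Fgf8 and Fgf9 and only in Myc-ESCs (313 bp and 680 bp there with lists of equal numbers of peaks).

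Suz12 covered the start base of the members that had it at the start, and H3K27me3 covered the start base of none. Summed over the 9 windows, H3K4me3 covered 30368 bp in LIF-ESCs versus 32720 bp in Myc-ESCs. Suz12 covered 11530 bp in LIF-ESCs compared with 14625 bp in Myc-ESCs, and H3K27me3 covered 342 bp and 3554 bp. With lists of equal numbers of peaks the H3K27me3 sums were 342 bp and 993 bp. The start base lay under an H3K4me3 peak at 9 members in each culture and under a Suz12 peak at each of the 5 and 7 members that had one. No H3K27me3 peak covered the start base of a member in either culture. Peaks of the H3K27me3 lists were short, with median lengths of 157 bp (LIF-ESCs) and 162 bp (Myc-ESCs). The share of all genes with a covered start base is not given here.

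The promoter sequences of 5 members, Fgf3, Fgf4, Fgf9, Fgf10 and Fgf18, matched the RefSeq promoter table by symbol; Fgf8, Fgf15, Fgf17 and Fgf20 had no entry. They are printed because CG dinucleotides are the sequence feature best known to go with H3K4me3 and PRC2, and because these 5 genes include the member without Polycomb peaks, Fgf4, and members with Suz12 in both cultures or in Myc-ESCs only. Each line gives the 250 bases before the start site on the gene's own strand (GRCm38, RefSeq), 5′ to 3′, with every CG in capitals. They lie at chr7:144861136-144861385 (Fgf4, plus strand), chr7:144838362-144838611 (Fgf3, plus strand), chr13:118714449-118714698 (Fgf10, plus strand), chr11:33147401-33147650 (Fgf18, minus strand) and chr14:58072436-58072685 (Fgf9, plus strand).
Fgf4: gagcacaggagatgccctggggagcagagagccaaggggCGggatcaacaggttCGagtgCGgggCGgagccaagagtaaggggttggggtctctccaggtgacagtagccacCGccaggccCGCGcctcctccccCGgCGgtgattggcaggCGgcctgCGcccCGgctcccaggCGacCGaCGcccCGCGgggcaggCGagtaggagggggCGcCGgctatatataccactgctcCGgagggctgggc
Fgf3: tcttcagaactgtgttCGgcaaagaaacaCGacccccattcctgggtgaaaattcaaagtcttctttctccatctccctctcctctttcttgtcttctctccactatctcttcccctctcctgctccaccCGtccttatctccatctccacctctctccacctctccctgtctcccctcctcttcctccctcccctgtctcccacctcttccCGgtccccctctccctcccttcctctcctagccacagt
Fgf10: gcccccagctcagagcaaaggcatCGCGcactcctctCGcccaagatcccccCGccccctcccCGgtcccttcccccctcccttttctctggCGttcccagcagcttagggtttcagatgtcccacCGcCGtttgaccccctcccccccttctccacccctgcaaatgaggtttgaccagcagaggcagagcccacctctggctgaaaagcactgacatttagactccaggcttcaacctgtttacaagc
Fgf18: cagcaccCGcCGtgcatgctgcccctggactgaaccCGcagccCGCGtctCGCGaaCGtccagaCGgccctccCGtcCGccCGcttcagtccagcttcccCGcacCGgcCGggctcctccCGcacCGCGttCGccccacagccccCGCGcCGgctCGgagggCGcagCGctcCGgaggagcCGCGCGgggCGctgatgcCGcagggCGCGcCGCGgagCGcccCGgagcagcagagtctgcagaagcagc
Fgf9: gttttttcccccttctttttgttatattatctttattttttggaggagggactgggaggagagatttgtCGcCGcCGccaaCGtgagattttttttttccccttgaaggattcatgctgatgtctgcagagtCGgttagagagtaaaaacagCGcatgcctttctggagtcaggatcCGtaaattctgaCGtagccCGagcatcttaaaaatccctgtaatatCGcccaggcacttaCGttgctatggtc

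These stretches differed in CG content. Fgf18, with Suz12 at its start in Myc-ESCs only, had 37 CG dinucleotides, and Fgf4, with no Polycomb peak, had 21. Fgf9, the member with the most Suz12, had 11, Fgf10 had 8 and Fgf3 had 4. Over the 300-base promoters of the table, which run 50 bases past the start, the counts were 47 for Fgf18, 28 for Fgf4, 14 for Fgf3, 12 for Fgf9 and 10 for Fgf10, all above the median of 7 over 32851 promoters. The motif CACGTG, the palindromic E-box bound by Myc and Max, was searched in the same 300 bases, and since it is its own reverse complement 1 strand serves for both. It was found in 0 of the 5 promoters and in 7.15% of all promoters in the table.

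Over the whole start site window the order was different. Fgf9 had 5.26 CG per 100 bases, Fgf18 4.36, Fgf8 4.07, Fgf3 4.04, Fgf4 3.7, Fgf15 3.2, Fgf10 2.1, Fgf20 1.84 and Fgf17 1.64, against a median of 1.82 over all genes. For all genes the median was 3.04 where Suz12 was listed in both cultures, 2.74 where it was listed in Myc-ESCs only, 2.15 where it was listed in LIF-ESCs only, and 2.32 where H3K4me3 was listed in both cultures and Suz12 in neither. Fgf4 lay above the median of the genes with Suz12, and Fgf20, with Suz12 in both cultures, lay below that of the genes without it.

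**Figure D2:**
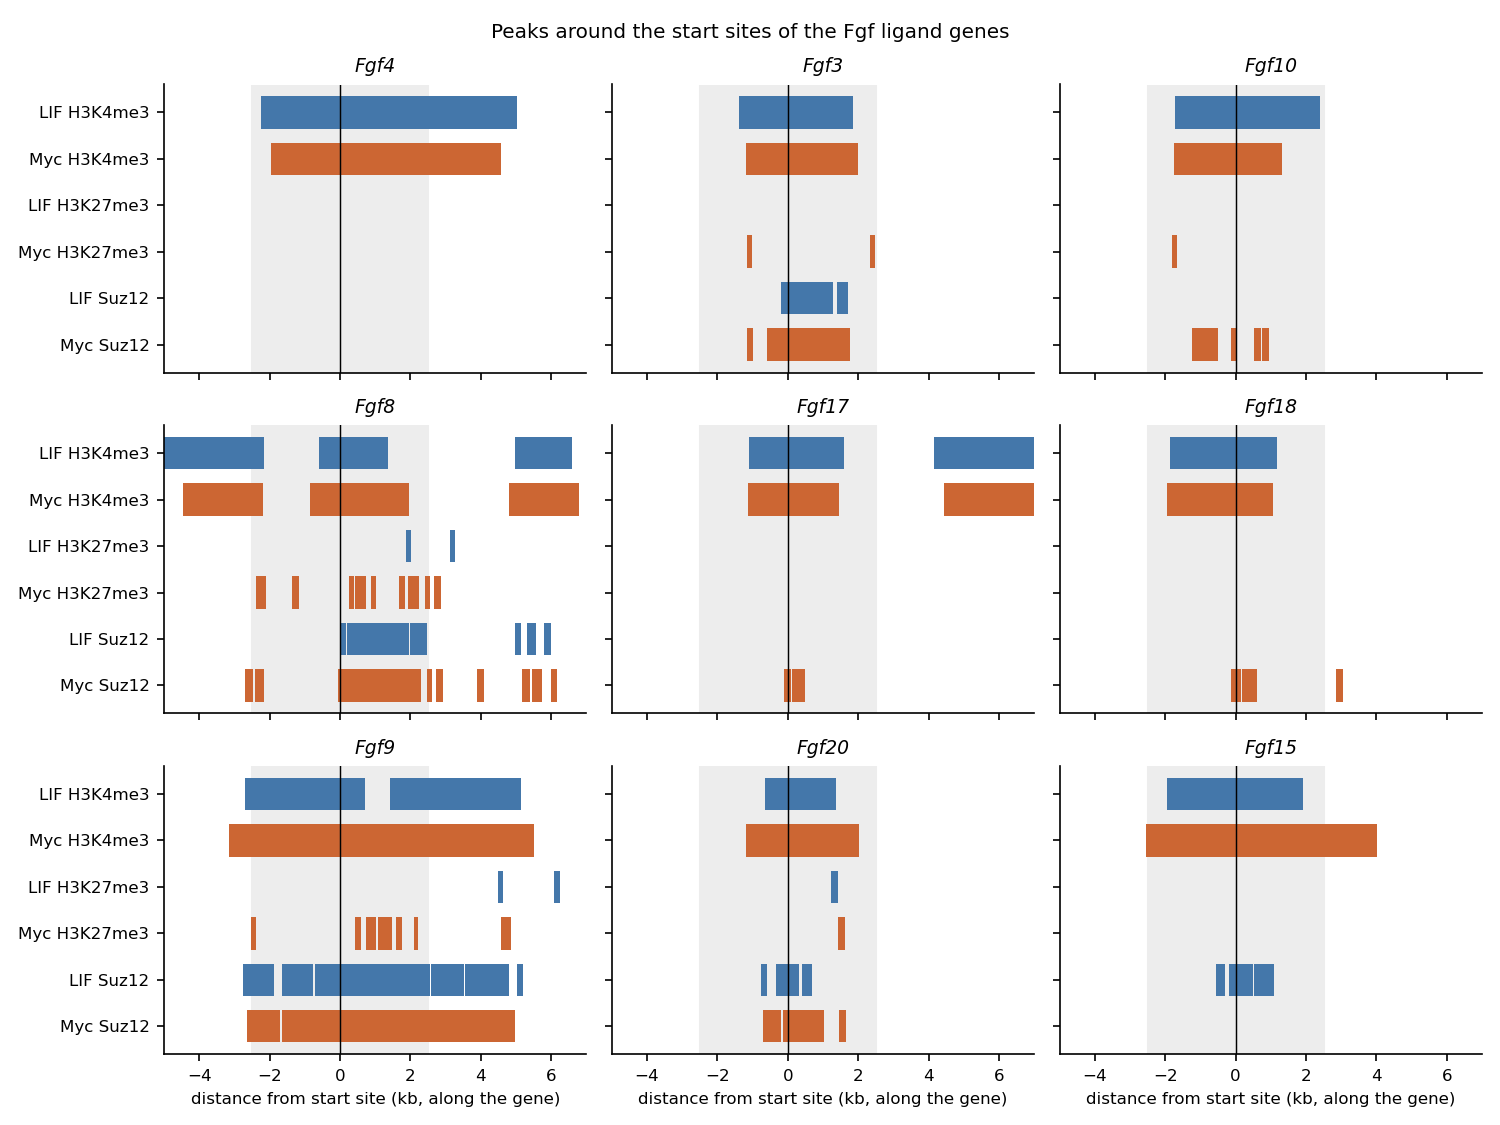
Peaks of the 6 lists around the start site of each Fgf ligand gene, with the distance from the start in kb along the direction of the gene, the start as a vertical line and the start site window shaded, LIF-ESCs in blue and Myc-ESCs in orange. The view runs from 5 kb before to 7 kb after the start and leaves out peaks farther into Fgf9 and Fgf18, and wide H3K4me3 blocks at Fgf4, narrow H3K27me3 peaks at Fgf8 and Fgf9, and Suz12 in 1 culture only at Fgf10, Fgf15, Fgf17 and Fgf18 can be seen.

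Fgf4, the ligand that embryonic stem cells make themselves, carried wide H3K4me3 and no Polycomb peak. The gene occupies chr7:144861386-144865245 on the plus strand and has 3 exons. Its H3K4me3 peak was 7267 bp long in LIF-ESCs versus 6540 bp in Myc-ESCs, and in each culture it covered the whole gene, from the upstream flank to beyond exon 3. Within the start site window H3K4me3 covered 4742 bp in LIF-ESCs compared with 4474 bp in Myc-ESCs. The score was 3100 in both, a value shared by 4006 peaks of the LIF-ESC list and 3185 of the Myc-ESC list, so that scores at this level do not rank the peaks. H3K27me3 covered 0 bp in both cultures, as did Suz12. The nearest Suz12 peak lay 21064 bp from the start in LIF-ESCs versus 21022 bp in Myc-ESCs, and both of these were at Fgf3.

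Fgf3, a ligand of inner ear and tail development, kept Suz12 in both cultures and had H3K27me3 peaks in Myc-ESCs. The gene lies at chr7:144838612-144843348 on the plus strand, in the same direction as Fgf4. H3K4me3 covered 3265 bp of the window in LIF-ESCs compared with 3192 bp in Myc-ESCs, each as 1 peak from the upstream flank into intron 1, so its extent hardly differed. Suz12 covered 1786 bp in LIF-ESCs versus 2529 bp in Myc-ESCs. The longest Suz12 peak had 1462 bp and a score of 812.95 in LIF-ESCs, as against 2353 bp and a score of 3100 in Myc-ESCs, and each spans the start and exon 1. H3K27me3 covered 0 bp in LIF-ESCs, with the nearest peak 100786 bp away, and 292 bp in Myc-ESCs. The latter was made up of a peak of 147 bp and score 50.83 upstream, inside both an H3K4me3 and a Suz12 peak, and a peak of 145 bp and score 64.6 in intron 2, outside both.

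Fgf10, which drives the outgrowth of limb and lung buds, had Suz12 in Myc-ESCs only, over more bases than Fgf17 or Fgf18. It lies at chr13:118714699-118792573 on the plus strand. H3K4me3 covered 4135 bp of the window in LIF-ESCs compared with 3071 bp in Myc-ESCs, so its listed extent was narrower in Myc-ESCs. The score of the peak was 1022.82 and 321.37. Scores follow a p-value and the read depth was unknown, so they do not measure the level of the mark. The downstream edge of the peak lay 2400 bp after the start in LIF-ESCs versus 1308 bp after it in Myc-ESCs, whereas the upstream edges were close together, at -1734 bp and -1762 bp. Suz12 covered 0 bp in LIF-ESCs, where the nearest peak lay 881481 bp away, and 1310 bp in Myc-ESCs. That cover came from 4 peaks, 1 of 748 bp and score 219.15 upstream and 3 of 157 to 205 bp at the start and in exon 1, all inside the H3K4me3 peak. The 3 smaller ones score under 100, and without such peaks the cover was 748 bp. H3K27me3 covered 0 bp in LIF-ESCs compared with 148 bp in Myc-ESCs, in 1 upstream peak of score 63.87 that no Suz12 peak overlapped.

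Fgf8 gives its name to a subfamily of organisers of midbrain, limb and gastrulation that also includes Fgf17 and Fgf18. It is encoded at chr19:45736491-45742941 on the minus strand. Fgf8 is 1 of the 2 members with all 3 marks at the start in both cultures, a state of 2.37% of all genes. With each culture counted by itself, all 3 marks lay at the start of 2.77% (LIF-ESCs) and 8.87% (Myc-ESCs) of all genes. In Myc-ESCs, Fgf3, Fgf9 and Fgf10 also had all 3. H3K4me3 covered 2311 bp of the window in LIF-ESCs versus 3146 bp in Myc-ESCs. The peak over the start was 1961 bp long with a score of 110.54 in LIF-ESCs and 2825 bp with a score of 251.59 in Myc-ESCs. The remainder was the edge of a neighbouring peak: in LIF-ESCs this was 5467 bp long with a score of 2930.44 and contained the start of Npm3, and in Myc-ESCs it was 2262 bp long with a score of 77 and did not.

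The Polycomb marks at Fgf8 covered more bases in Myc-ESCs, for H3K27me3 by an amount that depended on the length of the lists. Suz12 covered 2397 bp in LIF-ESCs compared with 2719 bp in Myc-ESCs, in 4 peaks each, and the longest had 1106 bp and a score of 1077.88 in the former, and 2355 bp and a score of 3050.96 in the latter. H3K27me3 covered 144 bp in LIF-ESCs, in 1 peak of score 59.72 in intron 3, and 1642 bp in Myc-ESCs, in 9 peaks with scores between 50.62 and 116.85. With lists of equal numbers of peaks the Myc-ESC cover was 313 bp, from 1 peak, and the LIF-ESC cover was still 144 bp. The Myc-ESC peaks ran from upstream through introns 1, 2 and 3 and did not touch the start base, the nearest lying 258 bp after it. In the full Myc-ESC list 6.9% of the marked genes had as many bases covered, so more bases were listed at Fgf8 than at most of them. This rank was not taken on the shorter lists.

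Fgf17, a midbrain and hindbrain ligand close to Fgf8 in sequence, and Fgf18, a ligand of bone and cartilage, shared 1 pattern: H3K4me3 in both cultures, Suz12 in Myc-ESCs only and H3K27me3 in neither. The same 6 calls were held by 548 genes, or 2.09% of all genes. At Fgf17 (chr14:70636203-70642268, minus strand) H3K4me3 covered 2710 bp in LIF-ESCs versus 2590 bp in Myc-ESCs. Suz12 covered 0 bp in LIF-ESCs, with the nearest peak 86431 bp away, and 539 bp in Myc-ESCs, in peaks of score 87.26 and 61.54 at the start and in exon 1. Both scores are under 100, and when such peaks were left out Suz12 lay at 6 members in Myc-ESCs, against 11.3% of all genes, Fgf17 being lost. A second H3K4me3 peak over the end of Fgf17, 4762 bp in LIF-ESCs compared with 4399 bp in Myc-ESCs, contains the start of Dmtn, whose gene record begins 154 bp farther on.

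At Fgf18 (chr11:33116970-33147400, minus strand) H3K4me3 covered 3016 bp in LIF-ESCs versus 3025 bp in Myc-ESCs, which is nearly the same extent. Suz12 covered 0 bp of the window in LIF-ESCs compared with 724 bp in Myc-ESCs, in peaks of score 171.6 and 104.8 on and just after the start. Within the gene the mark was present in LIF-ESCs too: a Suz12 peak of 279 bp and score 73.51 lay in intron 4, 23882 bp after the start, inside a second H3K4me3 peak of 2050 bp. In Myc-ESCs that H3K4me3 peak was 2618 bp long and no Suz12 peak lay in it. A further Myc-ESC Suz12 peak, of 182 bp and score 53.49, lay in intron 2. The listed Suz12 peaks of Fgf18 thus lay at different places in the gene in the 2 cultures. The LIF-ESC side rests on 1 peak scoring under 100, and a missing peak is not a measured absence.

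Fgf9, a ligand of testis and lung mesenchyme, had the widest Suz12 of the 9 members. It lies at chr14:58070671-58112854 on the plus strand. Suz12 covered 4702 bp of the window in LIF-ESCs versus 4936 bp in Myc-ESCs, which only 4.63% and 5.1% of the marked genes equalled or passed. Over the gene body the LIF-ESC Suz12 signal was listed as 7 peaks of up to 2997 bp and the Myc-ESC signal as 2 peaks, of 933 bp and 6612 bp, with a score of 3100 for the longest in each. H3K4me3 behaved alike, with 2 peaks of 3426 bp and 3722 bp in LIF-ESCs compared with 1 of 8650 bp in Myc-ESCs, and it covered 4310 bp and 5001 bp of the window.

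H3K27me3 at Fgf9 reached the start site window in Myc-ESCs only. In LIF-ESCs 4 peaks of 143 to 172 bp lay in introns 1 and 2, the nearest 4480 bp after the start, so that 0 bp of the window was covered. In Myc-ESCs 6 peaks at the start covered 1266 bp, and a seventh, farther into intron 1, overlapped the nearest LIF-ESC peak by 44 bp. With lists of equal numbers of peaks, and likewise without peaks scoring under 100, the Myc-ESC cover of the Fgf9 window was 680 bp. In the full list the 6 peaks at the start had scores between 51.12 and 198.7, the latter the highest H3K27me3 score of the members. With a window of 5000 bp on each side the LIF-ESC peak in intron 1 is included, and Fgf9 then carries H3K27me3 in both cultures.

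Fgf20, an inner ear and kidney ligand of the same subfamily as Fgf9, carried all 3 marks in both cultures. It lies at chr8:40279166-40286953 on the minus strand. H3K4me3 covered 2034 bp in LIF-ESCs versus 3220 bp in Myc-ESCs, and Suz12 covered 1108 bp and 1868 bp, so both were wider in Myc-ESCs. Without peaks scoring under 100 the LIF-ESC Suz12 cover was 662 bp. The Myc-ESC H3K4me3 peak contained the whole LIF-ESC peak. H3K27me3 was 1 peak in intron 1 in each culture, of 198 bp with a score of 66.52 in LIF-ESCs and of 206 bp with a score of 75.85 in Myc-ESCs, and these overlapped by 8 bp. With lists of equal numbers of peaks the Myc-ESC one was lost, and H3K27me3 at Fgf20 was then listed in LIF-ESCs only.

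Fgf15, the mouse counterpart of human FGF19 and a gut hormone that restrains bile acid synthesis, was the member with Suz12 in LIF-ESCs only. It lies at chr7:144896532-144900953 on the plus strand. Suz12 covered 1537 bp in LIF-ESCs, in 3 peaks of 255, 703 and 579 bp with scores of 76.35, 262.59 and 284.87, and 0 bp in Myc-ESCs, where the nearest peak lay 41557 bp away. The LIF-ESC peaks spanned the start, from -549 bp to 1100 bp along the gene. H3K4me3 was 1 peak of 3845 bp with a score of 1854.58 in LIF-ESCs compared with 1 of 6549 bp with a score of 3100 in Myc-ESCs, where it filled the window (5001 bp) and 90.86% of the gene body, against 43.13% in LIF-ESCs. H3K27me3 covered 0 bp in both cultures. The 6 calls of Fgf15 were shared by 219 genes, or 0.837% of all genes.

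**Figure D3:**
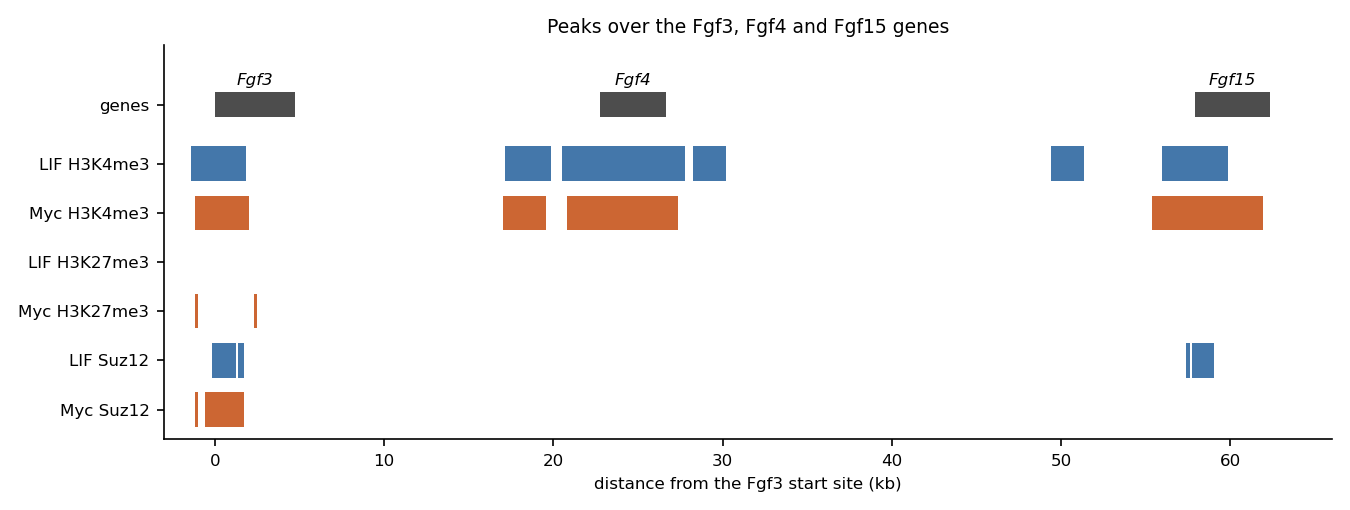
Peaks of the 6 lists over the region from Fgf3 to Fgf15 on chromosome 7, as distance from the Fgf3 start site in kb, with LIF-ESCs in blue and Myc-ESCs in orange and the genes in grey. Suz12 lies on Fgf3 in both cultures, on Fgf4 in neither and on Fgf15 in LIF-ESCs only.

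Fgf3, Fgf4 and Fgf15 lie in this order and in the same direction within 62342 bp, and the 3 neighbours had 3 different states. The gaps were 18037 bp between Fgf3 and Fgf4 and 31286 bp between Fgf4 and Fgf15. In these gaps LIF-ESCs had 3 further H3K4me3 peaks, of 2713, 1934 and 1971 bp with scores between 110.94 and 175.51. Myc-ESCs had 1, of 2507 bp with a score of 79.14, next to Fgf4. No H3K27me3 peak was listed in the gaps in either culture, and the only Suz12 cover there came from the LIF-ESC peaks at the Fgf15 start, of 255 bp just upstream and 703 bp across it.

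Where a member carried Suz12 in both cultures, its longest peak was longer in Myc-ESCs in 4 of 4 cases (Fgf3, Fgf8, Fgf9 and Fgf20), as it was at 82.3% of the 2822 genes of that kind, and more bases were covered in 4 of 4, against 81.4%. The members therefore did as most such genes did. The longest H3K4me3 peak was longer in Myc-ESCs at 4 of 9 members, against 61.9% of the genes with the mark in both cultures, and more bases were covered at 5 of 9, against 65.0%. For H3K27me3 the 2 members marked in both cultures had a longer peak and more bases covered in Myc-ESCs, against 84.4% and 89.0% of such genes. At Fgf20 the difference in covered bases was only 8 bp. With lists of equal numbers of peaks it turned to -198 bp (Myc-ESCs minus LIF-ESCs).

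The H3K27me3 peaks of the members were short and had low scores. Myc-ESCs had 21 at the starts or over the bodies, of 122 to 401 bp, with scores from 50.62 to 198.7, and 3 of them reached 100. Of these, 18 overlapped a Myc-ESC Suz12 peak, 17 overlapped an H3K4me3 peak, and 3 overlapped an H3K27me3 peak of LIF-ESCs. LIF-ESCs had 7, of 138 to 198 bp and with no score of 100, of which 2 overlapped a Suz12 peak. The share of all H3K27me3 peaks with such overlaps is not given here. The H3K27me3 calls of Fgf3, Fgf10 and Fgf20 in Myc-ESCs rested on peaks below 100.

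The sequences under 4 Myc-ESC H3K27me3 peaks are given for the genes that had such a peak at the start in Myc-ESCs only: both peaks of Fgf3, the peak of Fgf10 and a higher-scoring peak of Fgf9. They are read from GRCm38 on the plus strand, which is the strand of all 3 genes, with every CG in capitals. They lie at chr7:144837455-144837601 (Fgf3, upstream), chr7:144840957-144841101 (Fgf3, intron 2), chr13:118712897-118713044 (Fgf10, upstream) and chr14:58073424-58073702 (Fgf9, intron 1).
Fgf3, upstream peak: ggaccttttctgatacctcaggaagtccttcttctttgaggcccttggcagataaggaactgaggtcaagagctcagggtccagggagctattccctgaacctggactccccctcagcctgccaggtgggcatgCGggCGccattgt
Fgf3, intron 2 peak: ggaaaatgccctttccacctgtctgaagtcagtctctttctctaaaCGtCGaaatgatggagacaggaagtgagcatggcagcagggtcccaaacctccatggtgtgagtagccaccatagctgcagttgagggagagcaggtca
Fgf10 peak: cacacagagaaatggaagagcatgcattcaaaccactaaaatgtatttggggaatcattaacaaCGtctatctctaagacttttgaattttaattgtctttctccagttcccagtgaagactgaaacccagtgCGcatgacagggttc
Fgf9 peak: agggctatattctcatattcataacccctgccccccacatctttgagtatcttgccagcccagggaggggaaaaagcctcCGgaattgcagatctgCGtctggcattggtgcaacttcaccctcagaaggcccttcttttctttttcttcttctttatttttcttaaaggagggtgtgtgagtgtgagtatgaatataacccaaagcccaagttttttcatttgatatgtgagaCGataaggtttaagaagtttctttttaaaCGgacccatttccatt

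The peaks of Fgf3 and Fgf10 held 2 CG dinucleotides each and that of Fgf9 held 4. Over all 21 Myc-ESC H3K27me3 peaks of the members the median was 2.11 CG per 100 bases, with a range from 0.364 to 8.57. The median was 0.822 over the 16717 peaks of the list, but these 2 medians are not like for like. Members' peaks were taken at start sites and gene bodies, 19 of them at start sites, whereas the list covers the whole genome. Fgf8 and Fgf9, with 4.07 and 5.26 CG per 100 bases of window, gave 9 and 6 of those 19. The Suz12 peaks of the members, taken at the same places, had medians of 5.02 in LIF-ESCs (23 peaks) and 2.46 in Myc-ESCs (25 peaks), against 3.32 and 2.99 over all peaks of those lists. Each peak counted once whatever its length, and Fgf9 gave 7 Suz12 peaks in LIF-ESCs but 2 in Myc-ESCs. The medians therefore depend on how the signal was split into peaks. At Fgf3 the longest Suz12 peak held 8.55 CG per 100 bases in LIF-ESCs and 6.93 in Myc-ESCs.

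The 9 other secreted Fgf ligand genes were counted in the same way. H3K4me3 lay at the start of 5 of 9 in each culture, H3K27me3 at 1 of 9 in each (Fgf5 with LIF, Fgf6 in Myc-ESCs), and Suz12 at 2 of 9 in LIF-ESCs compared with 3 of 9 in Myc-ESCs, with Fgf2 in Myc-ESCs only. Both H3K27me3 calls rested on peaks scoring under 100, at most 72.65 (Fgf5) and 62.92 (Fgf6). The difference from the 9 members was not tested. Fgf5, a ligand that is switched on as cells leave the naive state and lies in the subfamily of Fgf4, had 2173 bp of H3K4me3 with a score of 211 in LIF-ESCs versus 4769 bp with a score of 3100 in Myc-ESCs. Its Suz12 cover was 3370 bp in LIF-ESCs compared with 1169 bp in Myc-ESCs, and its H3K27me3 cover was 123 bp and 0 bp. As at Fgf15, H3K4me3 was thus wider and Suz12 narrower in Myc-ESCs.

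**Figure D4:**
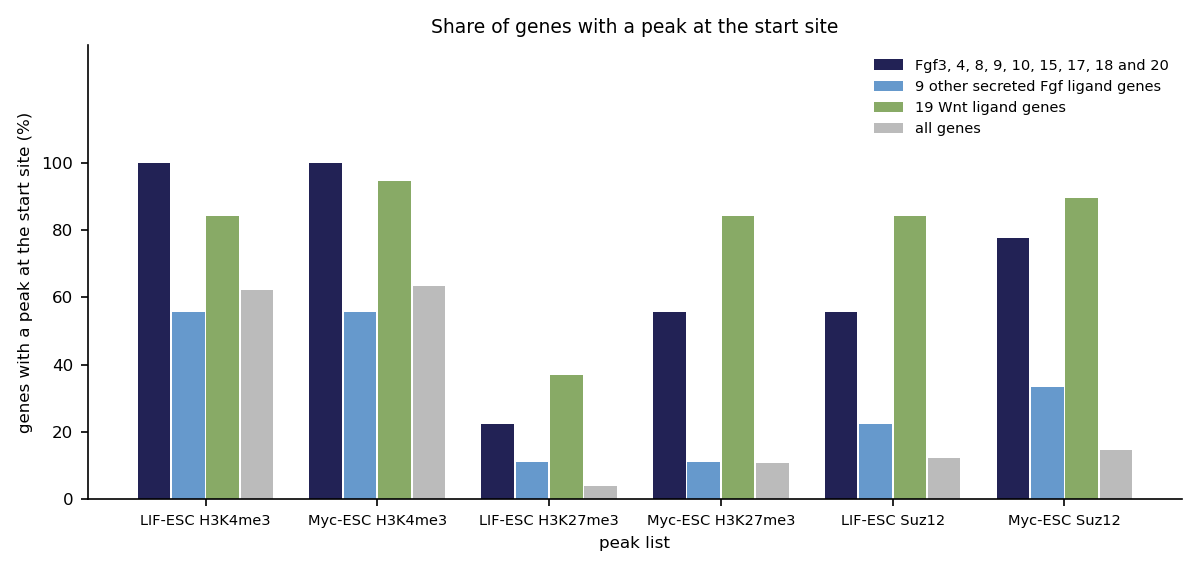
Share of genes with a peak at the start site, in percent, in each of the 6 lists for the 9 Fgf ligand genes described, the 9 other secreted Fgf ligand genes, the 19 Wnt ligand genes and all 26180 genes. The 9 genes reach 100% for H3K4me3 in both cultures, and in Myc-ESCs 55.6% for H3K27me3 and 77.8% for Suz12, below the Wnt ligand genes for both of the latter.

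Related genes and genes of the receptor pathway were H3K4me3-marked with few exceptions. The 4 intracellular Fgf homologues, which are not secreted, carried H3K4me3 and Suz12 in both cultures, and H3K27me3 at 2 in LIF-ESCs but at 3 in Myc-ESCs, Fgf12 being the addition. Of the 7 receptor and co-receptor genes, 6 carried H3K4me3 in each culture, 3 carried H3K27me3 in LIF-ESCs compared with 4 in Myc-ESCs (with Kl, a co-receptor, in the latter only), and 3 and 4 carried Suz12 (with Fgfr1 in Myc-ESCs only). All 8 relay genes from Frs2 to the Erk kinases carried H3K4me3 in both cultures, 2 carried Suz12 in both, and H3K27me3 lay at 2 in LIF-ESCs versus 1 in Myc-ESCs, with Frs2 marked in LIF-ESCs only. Of the 10 target and feedback genes, all carried H3K4me3 in both cultures and none a Polycomb mark in LIF-ESCs, whereas in Myc-ESCs H3K27me3 lay at Spred1 and Suz12 at Spred1 and Etv5. The H3K27me3 calls in Myc-ESCs only rested on low scores, at most 73.13 (Fgf12), 66.91 (Kl) and 59.33 (Spred1). None remains without peaks scoring under 100 or with lists of equal numbers of peaks. The Suz12 peaks of Fgfr1 and Etv5 scored 57.61 and 59.54. Among all genes 7.65% had H3K27me3, and 3.82% Suz12, in Myc-ESCs only.

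The Wnt ligands are another family of secreted developmental signals, and their difference from the 9 Fgf ligand genes was not tested. Among 19 of them H3K4me3 lay at 16 in LIF-ESCs compared with 18 in Myc-ESCs (Wnt1 and Wnt10b in the latter only), and Suz12 at 16 and 17 (Wnt5b in Myc-ESCs only). H3K27me3 lay at 7 and 16, against 3.82% and 10.7% of all genes. It was listed in Myc-ESCs only at Wnt2, Wnt3a, Wnt5a, Wnt5b, Wnt6, Wnt7a, Wnt9a, Wnt10a and Wnt16, against 7.65% of all genes. With lists of equal numbers of peaks the lowest Myc-ESC score was 103.8. The peaks of Wnt2, Wnt6, Wnt9a, Wnt10a and Wnt16 scored less and were lost. So were the Myc-ESC peaks of Wnt2b, Wnt3 and Wnt10b, which were then listed in LIF-ESCs only.

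Some combinations of calls were common and others rare. The 6 calls of Fgf4, H3K4me3 in both cultures and no Polycomb mark, were those of 11841 genes, or 45.2% of all genes. Those of Fgf3 and Fgf9 were shared by 1224 genes (4.68%), those of Fgf8 and Fgf20 by 621 (2.37%) and those of Fgf10 by 321 (1.23%).

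Likeness was measured as the sum over the 6 lists of the absolute differences in bases covered at the start, for members with peaks in at least 3 lists. The genes nearest to Fgf18 were Ttll11 (137 bp) and Rab8b (246 bp), and those nearest to Fgf17 were Thy1 (266 bp) and Sema7a (304 bp). For Fgf10 they were Extl1 (556 bp) and Tdrp (632 bp), and for Fgf3 Tgfb2 (624 bp) and Lrrc26 (639 bp). For Fgf20 they were Gpr158 (718 bp) and Fut4 (801 bp). For Fgf15 they were Fzd7 (944 bp) and Id2 (958 bp), and for Fgf8 Gpc5 (954 bp) and Slc6a2 (1299 bp). No other member was among the nearest 2 genes of a member.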

How the data were processed

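R1 mouse embryonic stem cells were profiled by ChIP-seq for H3K4me3, H3K27me3 and Suz12 in LIF-ESCs and Myc-ESCs. Per the submitters' processing notes, Bowtie2 2.2.3 and MACS 1.4.2 were used, with GRCm38 (mm10). The authors deposited 1 peak list per culture and antibody, with coordinates and a score per peak, which MACS of this kind writes as a scaled minus log10 of a p-value. How the 2 libraries were combined is not given in the sources used here.

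From these lists, with Python 3.11.15, numpy 2.4.6, pandas 2.3.3 and pysam 0.24.0, peaks overlapping by at least 1 bp were assigned to the start site windows (2500 bp on each side) and bodies of 26180 gene symbols with 45756 curated RefSeq transcripts, on 21 chromosomes. The overlap code was tested on simulated data, where 0 of 2000 queries differed from a plain loop. Bases covered were counted once where peaks overlap. No test was run, since there was 1 list per group. As alternatives, peaks scoring under 100 were left out, or use was made of equal numbers of peaks, windows of 1000 and 5000 bp, at least 100 covered bp, and the gene record's start alone. The 9 members were all named, other pathway genes were named where their marks differed between cultures (some also as examples of known function), and the 2 most alike genes were named for each member with peaks in at least 3 lists, except that those of Fgf9 are not reported here. Members and lists were chosen with earlier results of these data known. The figures were drawn with matplotlib 3.10.9.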

Additional observations from a re-analysis of the deposited data

How the results depend on the processing

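The counts of members with H3K4me3 or Suz12 at the start stayed within 1.5 times under every alternative that was run, and those with H3K27me3 did not. Without peaks scoring under 100, H3K27me3 lay at the start of 0 members in LIF-ESCs versus 2 in Myc-ESCs, and over the bodies of 0 and 2. With equal numbers of peaks it lay at the start of 2 members in Myc-ESCs, 1 in Myc-ESCs only (Fgf9) and 1 in LIF-ESCs only (Fgf20). It then lay over the bodies of 2 in Myc-ESCs, and the difference in covered bases at Fgf20 turned to -198 bp (Myc-ESCs minus LIF-ESCs). Body shares of all genes were taken on the full lists only (4.04% in LIF-ESCs and 11.1% in Myc-ESCs). The body counts on shorter lists thus have no share beside them. With windows of 1000 bp H3K27me3 lay at 0 members in LIF-ESCs compared with 2 in Myc-ESCs (Fgf8 and Fgf9), where 1.74% and 6.2% of all genes had it. The Myc-ESC H3K27me3 cover was 313 bp at Fgf8 and 680 bp at Fgf9 both with equal numbers of peaks and without peaks scoring under 100. No paired analysis was possible because there was 1 peak list per culture and antibody. For the same reason no replicate could be left out. The depth behind the peaks was unknown, so a missing peak is not a measured absence of the mark.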

Other observations

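Each of the 3 genes of the Fgf8 subfamily lies downstream of a nucleophosmin family gene on the same strand, an arrangement chosen for description after the values were seen. The gap is 4792 bp between Npm3 and Fgf8, 5027 bp between Npm2 and Fgf17, and 5097 bp between Npm1 and Fgf18. Npm1 had 1 H3K4me3 peak at its start, of 14101 bp in LIF-ESCs versus 11495 bp in Myc-ESCs. Npm3 had 1 peak of 5467 bp in LIF-ESCs compared with 2 in Myc-ESCs, the longest of 3232 bp, and Npm2 had none in either culture. No Suz12 or H3K27me3 peak lay at the start of Npm1, Npm2 or Npm3 in either culture, whereas Suz12 lay at Fgf8, Fgf17 and Fgf18 in Myc-ESCs.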
